A study of Mus musculus with 16 samples.

Results

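The genes described are 10 proteases of the extracellular matrix, their inhibitors and a protease receptor: Mmp2, Mmp3, Mmp9, Mmp13, Mmp14, Timp1, Timp2, Timp3, Plau and Plaur. They were chosen by symbol and matched to 10 of the 33072 mouse genes in the count table. RNA was sequenced from 2 mouse mammary carcinoma cell lines of a BALB/c tumor, metastatic 4T1 and non-metastatic 67NR. Each line was grown in medium with 10% serum and treated for 24 h with vehicle or with 15 µM CIX, an inhibitor of the cytosolic phospholipase cPLA2α, which releases arachidonic acid from membranes. There were 4 samples in each of the 4 groups, namely 67NR with vehicle (samples 1, 5, 9 and 13), 67NR with CIX (2, 6, 10 and 14), 4T1 with vehicle (3, 7, 11 and 15) and 4T1 with CIX (4, 8, 12 and 16). Each line was cultured alone, without stroma or immune cells. The study compared how metastatic and non-metastatic cells respond to inhibition of cPLA2α, and reported changes of gene expression for the metastatic line.

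Matrix metalloproteinases (MMPs) are secreted or membrane-bound zinc proteases that are made as inactive proenzymes and together cleave most proteins of the extracellular matrix. The tissue inhibitors of metalloproteinases (TIMPs) bind and block the active enzymes, and TIMP2 also takes part in the activation of pro-MMP2 by the membrane enzyme MMP14. Urokinase, encoded by Plau, turns plasminogen into plasmin at the cell surface when bound to its receptor, encoded by Plaur. Plasmin in turn cleaves matrix proteins and activates several proMMPs. In breast tumors much of the MMP2 is made by fibroblasts of the stroma, and urokinase is an established prognostic marker.

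Levels are given as CPM, counts scaled to a common library size with the trimmed mean of M-values (TMM), which suits comparisons of a gene between samples. TPM also divides by transcript length and was used to compare levels between genes. The libraries held between 21715700 and 29450629 counts, and 3 counts, the smallest level taken as detected, amounted to between 0.102 and 0.138 CPM, a floor that covers counting error only. Within each group every pair of samples differed far beyond counting error, by a chi-square of at least 18.1 per gene. In whole cultures a lower level of a transcript cannot be told apart from fewer cells that express it. The 4T1 samples expressed epithelial keratin and junction genes (summed CPM of 11 markers 4033 to 5168), which lay between 1.36 and 7.09 CPM in 67NR. The 9 leukocyte and macrophage markers summed to between 52.9 and 90.1 CPM with vehicle and between 134 and 200.0 CPM with CIX in 4T1, and to between 9.21 and 14.2 CPM and between 36.0 and 41.8 CPM in 67NR. Most of this was Cd68 (68.3 ± 15.4 and 167 ± 30.5 CPM in 4T1, 8.82 ± 2.01 and 37.3 ± 2.94 CPM in 67NR), whereas Adgre1 and Tyrobp were at 0 in all groups and Ptprc was at most 1.40 CPM. Endothelial markers summed to at most 10.0 CPM. Samples 3 and 4 of 4T1 stood apart in many of the members, so results that rest on them are given with and without them.

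A gene was taken as expressed in a group when its TPM was at least 1 in all 4 samples. By that criterion 8 of the 10 members were expressed in 4T1 with either treatment, namely Mmp3, Mmp9, Mmp13, Mmp14, Timp1, Timp2, Plau and Plaur. In 67NR cells 5 members were expressed with vehicle, Mmp3, Mmp14, Timp1, Timp2 and Plaur, and Mmp9 joined them with CIX. The numbers were the same whether TPM was computed with the mean or the longest transcript length. Mmp2 and Timp3 were expressed in none of the groups.

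**Figure D1:**
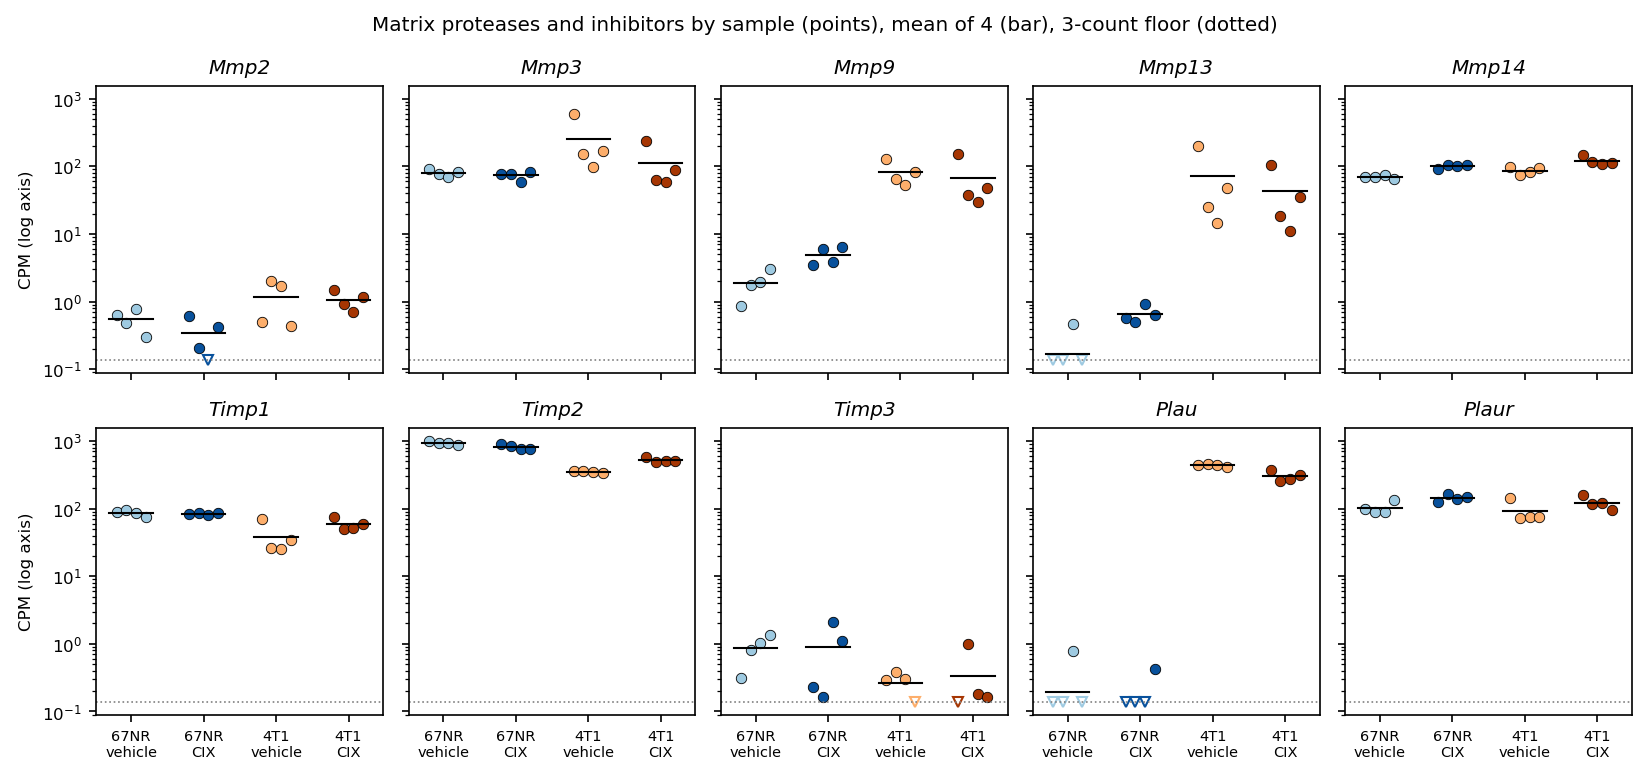
CPM of each member (log axis) in the 16 samples, 4 per group; the black bar is the mean of the group where it lies above the floor, the dotted line the highest 3-count floor, and open triangles are samples below it. Mmp13 and Plau were at 10.9 and 255 CPM or more in every 4T1 sample and below 1 CPM in every 67NR sample, whereas Mmp2 and Timp3 stayed at or below 2.11 CPM throughout.

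The promoters of 7 of the 10 members were found in the RefSeq table used here (Mmp2, Mmp9 and Plau had no entry). In the 250 bases before the RefSeq start, 3 of these 7 members held TGANTCA, the consensus of the AP-1 transcription factors, a motif that reads the same on both strands. The motif stood with its first base 46 bases before the start in Mmp3, 35 bases before it in Mmp13 and 69 bases before it in Plaur. Of all 32817 promoters in the table, 6.75% held this motif in the same window. The 100 bases before the start are shown for these members, which hold the motif, and for Timp2 and Mmp14, which hold none and whose CIX and vehicle samples did not overlap in 4T1. Capitals mark the motif, sequences run 5′ to 3′ on the strand of the gene, and the build is GRCm38.p6.
Mmp3, chr9:7445722-7445821, plus strand: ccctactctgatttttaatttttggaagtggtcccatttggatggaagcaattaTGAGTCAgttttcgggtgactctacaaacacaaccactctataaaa
Mmp13, chr9:7272414-7272513, plus strand: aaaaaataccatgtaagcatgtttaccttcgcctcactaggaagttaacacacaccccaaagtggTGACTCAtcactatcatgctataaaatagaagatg
Plaur, chr7:24462383-24462482, plus strand: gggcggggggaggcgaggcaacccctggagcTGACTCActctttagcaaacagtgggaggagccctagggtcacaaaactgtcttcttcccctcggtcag
Timp2, chr11:118355412-118355511, minus strand: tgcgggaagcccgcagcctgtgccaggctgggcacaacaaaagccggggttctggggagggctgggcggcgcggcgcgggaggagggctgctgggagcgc
Mmp14, chr14:54431498-54431597, plus strand: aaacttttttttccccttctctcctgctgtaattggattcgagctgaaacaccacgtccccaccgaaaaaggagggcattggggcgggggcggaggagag

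The window before the start was 37.6% GC with 1 CpG in Mmp3 and 40.4% GC with 1 CpG in Mmp13, against 68.0% and 21 CpG in Timp2 and a median of 52.4% and 6 CpG over all promoters. Timp1 and Timp3 held no match either. The window of Timp2, before its RefSeq start, lies within the gene as annotated for the counts, which extends to 118355740 on the minus strand. A match or its absence describes the letters in this window only.

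Plau showed the widest gap between the lines. Urokinase mRNA (ENSMUSG00000021822, chromosome 14, 20836660 to 20843385) was at 442, 453, 436 and 417 CPM in samples 3, 7, 11 and 15 of vehicle treated 4T1 cells. In vehicle treated 67NR cells it was at 0 in 3 of the 4 samples and at 0.787 CPM in sample 9. The 2 lines did not overlap (437 ± 15.2 against 0.197 ± 0.394 CPM, SD, n = 4 each, 2-sided exact permutation p = 0.0286, the smallest that 4 against 4 samples allow). Because the gene was near 0 in 67NR, the filter on low levels removed it from the main comparison of the lines. Per length, Plau had the highest mean level of all members in vehicle treated 4T1 cells (309.8 ± 13.6 TPM), and it did not overlap with Timp2, the next in that order. With the longest transcript length it was also first, followed by Mmp3 with a wide spread.

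In CIX treated 4T1 cells Plau was at 372, 255, 270.2 and 311 CPM in samples 4, 8, 12 and 16. All 4 lay below all vehicle samples (302 ± 52.5 against 437 ± 15.2 CPM, ratio of means 0.692). The log2 fold change was -0.59 (SE 0.12, limma-voom adjusted p = 0.00375), which missed the threshold of 0.001 used in the study. Plau was called with DESeq2 (adjusted p = 1.89e-04), with sample quality weights (1.74e-04) and without sample 4 (6.13e-04), and over all alternatives its adjusted p ranged from 1.74e-04 to 0.0142. Without samples 3 and 4 the log2 fold change was -0.68 (adjusted p = 0.00153). In 67NR cells with CIX it stayed between 0 and 0.427 CPM. The difference between the responses of the lines could not be estimated with use (-1.11, SE 1.22), since it depended on these few counts.

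Plaur, the urokinase receptor (ENSMUSG00000046223, chromosome 7, 24462484 to 24475968), was expressed in both lines. It was at 97.3, 88.5, 90.0 and 136 CPM in vehicle treated 67NR and at 141, 73.4, 74.4 and 75.5 CPM in vehicle treated 4T1 cells. The lines overlapped and the log2 difference was -0.21 (SE 0.24, limma-voom adjusted p = 0.457). With CIX it was at 124, 167, 141 and 148 CPM in 67NR and at 158, 115, 122 and 94.4 CPM in 4T1 cells. The receptor thus lay somewhat higher with CIX in each line, without passing the test (0.50, SE 0.16, adjusted p = 0.0579 in 67NR and 0.41, SE 0.23, adjusted p = 0.180 in 4T1). Without samples 3 and 4 the value in 4T1 was 0.53 (SE 0.11, adjusted p = 0.00820). Without sample 13, the 67NR vehicle sample at 136 CPM, that in 67NR was 0.65 (SE 0.10, adjusted p = 0.00583). Sample 13 lay farthest from its group mean of the 16 samples, with 346 of 11583 genes more than 1 away on the log2 scale.

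Mmp9 encodes gelatinase B, which degrades basement membrane collagen (ENSMUSG00000017737, chromosome 2, 164940780 to 164955850). It was at 128, 64.0, 52.8 and 82.1 CPM in vehicle treated 4T1 cells and at 0.873, 1.77, 1.97 and 3.00 CPM in 67NR cells. The groups did not overlap, and Mmp9 was higher in 4T1 by 5.47 on the log2 scale (SE 0.53, limma-voom adjusted p = 1.76e-05), a 44.4-fold difference that passed the threshold under every alternative. With CIX it was at 3.47, 5.94, 3.89 and 6.49 CPM in 67NR, all above the vehicle samples, with a log2 fold change of 1.44 (SE 0.37, adjusted p = 0.0297), which passed 0.05 in 3 of the 8 fits with a sample removed. With CIX in 4T1 it was at 151, 37.4, 29.7 and 48.6 CPM, so that sample 4 lay above and the other 3 samples below all vehicle samples. The log2 fold change in 4T1 was -0.58 (SE 0.47, adjusted p = 0.347) with all samples and -0.83 (SE 0.22, adjusted p = 0.0201) without samples 3 and 4. The difference between the responses was -2.02 (SE 1.03, adjusted p = 0.160), and -2.28 (SE 0.52, adjusted p = 0.00431) without these samples.

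Mmp13 encodes collagenase 3, which cleaves fibrillar collagen (ENSMUSG00000050578, chromosome 9, 7272514 to 7283331). In vehicle treated 4T1 cells it was at 203, 25.3, 14.5 and 48.6 CPM and in 67NR cells at 0.119, 0.0444, 0.472 and 0.0428 CPM. The lines did not overlap (2-sided exact permutation p = 0.0286), and 2 of the 67NR samples were below 3 counts. The filter on low levels removed Mmp13 from the comparison of the lines. With CIX it was at 106, 18.8, 10.9 and 35.4 CPM in 4T1 cells, which overlapped with vehicle (-0.63, SE 0.87, adjusted p = 0.588). The value was -0.49 (SE 0.54, adjusted p = 0.487) without samples 3 and 4, and its sign turned to 0.11 when sample 3 alone was left out. In 67NR cells with CIX it was at 0.579, 0.495, 0.916 and 0.641 CPM, all above the vehicle samples (2-sided exact permutation p = 0.0286). At between 11.9 and 20.3 counts in a library it remained below 1 TPM, and without the filter limma-voom gave a log2 fold change of 2.33 (SE 0.58, adjusted p = 0.0399).

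Mmp3 encodes stromelysin 1, which cleaves many matrix proteins and activates other proMMPs (ENSMUSG00000043613, chromosome 9, 7445822 to 7455975). Its level was even in 67NR, at 92.4, 76.1, 69.8 and 81.8 CPM with vehicle and 77.3, 77.2, 59.3 and 82.6 CPM with CIX (-0.13, SE 0.12, limma-voom adjusted p = 0.518). In vehicle treated 4T1 cells it was at 599.6, 152, 97.9 and 171 CPM, above all 67NR samples with vehicle, with a log2 difference of 1.32 (SE 0.49, adjusted p = 0.0371), or 0.82 (SE 0.20, adjusted p = 0.00727) without sample 3. With CIX it was at 238, 63.0, 59.4 and 88.4 CPM in 4T1, so that 3 of the 4 samples lay below all vehicle samples and sample 4 lay above all but sample 3. The log2 fold change was -1.12 (SE 0.59, adjusted p = 0.154) with all samples and -1.02 (SE 0.24, adjusted p = 0.0131) without samples 3 and 4, while without sample 3 alone it was -0.59 (adjusted p = 0.333). Of the 31-base words of its transcript 14.6% also occur in other genes, first of all in Mmp10, the neighbouring stromelysin 2, so that some reads could belong to either.

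Mmp14 encodes a membrane-anchored MMP that cleaves collagen at the cell surface and activates pro-MMP2 (ENSMUSG00000000957, chromosome 14, 54431612 to 54445364). It was at 70.1, 69.5, 74.8 and 64.2 CPM with vehicle and 91.7, 106, 101 and 103 CPM with CIX in 67NR cells. In 4T1 cells it was at 96.6, 73.8, 83.0 and 93.0 CPM with vehicle and 146, 115, 107 and 111 CPM with CIX. In both lines all CIX samples lay above all vehicle samples, by 0.52 on the log2 scale in 67NR (SE 0.07, limma-voom adjusted p = 0.00275) and by 0.41 in 4T1 (SE 0.13, adjusted p = 0.0325). The value in 4T1 passed 0.05 in 5 of the 8 fits with a sample removed (adjusted p up to 0.0971) and not with library size alone (0.0655). Neither line passed the threshold of 0.001 (4T1 without samples 3 and 4 0.38, adjusted p = 0.0190), although DESeq2 called Mmp14 in 67NR (adjusted p = 3.07e-08). The difference between the responses was -0.11 (SE 0.15, adjusted p = 0.659), and the vehicle treated lines overlapped with a log2 difference of 0.31 (SE 0.10, adjusted p = 0.0238).

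Timp2 was the single member called in 4T1 cells after CIX (ENSMUSG00000017466, chromosome 11, 118301069 to 118355740, minus strand). In vehicle treated 4T1 cells it was at 354, 355, 348 and 331 CPM and with CIX it was at 572, 497, 502 and 514 CPM. It rose from 347 ± 11.0 to 521 ± 34.3 CPM (SD, n = 4 each), by 0.54 on the log2 scale (SE 0.08, limma-voom adjusted p = 7.64e-04). The call lies close to the threshold: the adjusted p was above it whichever of the 8 samples was removed (0.00102 to 0.00360) and without samples 3 and 4 (0.00133), while the log2 fold change kept between 0.48 and 0.60 under all alternatives. In 67NR cells Timp2 was at 990.3, 930.0, 945 and 859 CPM with vehicle and at 898, 842, 759 and 762 CPM with CIX. That change of -0.21 (SE 0.07, adjusted p = 0.0696, or 0.0496 without sample 13) did not pass the test and the groups overlapped.

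The response of Timp2 to CIX differed between the lines. The log2 fold change in 4T1 was 0.74 higher than that in 67NR (SE 0.10, limma-voom adjusted p = 7.88e-05), and the difference passed whichever of the 16 samples was removed. With vehicle, Timp2 was lower in 4T1 by 1.42 on the log2 scale (347 ± 11.0 against 931 ± 54.7 CPM, SE 0.06, adjusted p = 2.51e-07), a 2.67-fold difference. Per length it was the most abundant member in 67NR with either treatment (526 ± 46.1 TPM with vehicle) and in CIX treated 4T1 cells (290.3 ± 20.9 TPM). With the mean transcript length Timp2 did not overlap with the next member in the order. With the longest length it overlapped with Plau in CIX treated 4T1 cells (263 to 308 against 222 to 318 TPM). Cep295nl lies on the same strand within Timp2, but none of the 31-base words of Timp2 occur in another gene. The TPM ratio of Mmp14 to Timp2 within a sample was between 0.110 and 0.123 in 67NR with vehicle and between 0.159 and 0.212 with CIX. In 4T1 cells this ratio was between 0.324 and 0.438 with vehicle and between 0.331 and 0.397 with CIX, so that it separated the treatments in 67NR but not in 4T1. The values of the ratio depend on the transcript lengths used, and were lower with the longest transcripts.

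Timp1, a secreted inhibitor of most MMPs (ENSMUSG00000001131, chromosome X, 20870166 to 20874735), had the same order between the lines as Timp2. It was at 88.1, 93.9, 87.0 and 76.3 CPM in 67NR with vehicle and at 82.1, 86.4, 81.6 and 84.9 CPM with CIX (-0.05, SE 0.07, limma-voom adjusted p = 0.631). In 4T1 cells it was at 69.1, 26.3, 25.1 and 34.3 CPM with vehicle, below all 67NR samples, and at 73.9, 50.4, 50.9 and 60.2 CPM with CIX. The lines differed by -1.28 with vehicle (SE 0.27, adjusted p = 0.00255), and by -1.56 without sample 3 (adjusted p = 1.77e-05), which passed the threshold. After CIX the log2 fold change in 4T1 was 0.67 (SE 0.29, adjusted p = 0.0946), with sample 3 among the CIX samples in level. Without samples 3 and 4 it was 0.89 (SE 0.15, adjusted p = 0.00295), and the difference from the response in 67NR was 0.92 (SE 0.16, adjusted p = 7.02e-04) against 0.72 (SE 0.31, adjusted p = 0.0996) with all samples. Syn1 lies on the opposite strand, and the kit marks strand.

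Mmp2, which encodes gelatinase A (ENSMUSG00000031740, chromosome 8, 92827291 to 92853420), was between 0.137 and 2.02 CPM over all 16 samples, or between 2.85 and 47.1 counts in a library. Timp3, an inhibitor that binds to the matrix (ENSMUSG00000020044, chromosome 10, 86300372 to 86349506), was between 0 and 2.11 CPM, with at most 46.5 counts. Neither passed the filter on low levels in any comparison, and their groups overlapped in each. Without the filter limma-voom gave Timp3 a log2 difference between the vehicle treated lines of -1.68 (SE 0.59, adjusted p = 0.0374), above the threshold of 0.001, on at most 32.1 counts in a library. The other unfiltered values of both genes had adjusted p of at least 0.326. Syn3 lies on the opposite strand of Timp3 and shares part of the 21.9% of the words of Timp3 that occur in other genes.

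Per length the order of the members differed between the lines. With vehicle it ran in 67NR from Timp2 over Timp1 and Plaur (126 ± 14.5 and 113 ± 19.9 TPM) to Mmp14 and Mmp3 (61.4 ± 5.94 and 55.5 ± 6.16 TPM) and then, at a distance, Mmp9 (1.82 ± 0.784 TPM). Timp1 and Plaur overlapped, as did Mmp14 and Mmp3, whose order turned with the longest transcript length. In 4T1 cells with vehicle, Plau had the highest mean, although Mmp3 in sample 3 (439.8 TPM) lay above all its values, and each neighbouring pair from Timp2 down to Mmp13 (36.5 ± 43.4 TPM) overlapped.

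Of the 8 members tested in 4T1 cells after CIX, 1 was called, which was higher, where 9.28% of all tested genes were called (5.33% higher and 3.96% lower). At a threshold of 0.05, Timp2, Mmp14 and Plau passed, 3 of the 8 members, against 42.7% of all genes. These were also the 3 members whose CIX and vehicle samples did not overlap, which held for 39.6% of all tested genes. The number at 0.05 was 5 of 9 tested members without sample 3 (41.0% of all genes) and 5 of 8 without sample 4 (45.0%). It was 7 of 9 without both (46.5%) and 7 of 8 with sample quality weights (55.5%). It was 2 of 8 without sample 7 (34.1%) or 11 (39.7%) and with library size alone (43.3%), and 2 of 9 without sample 8 (34.9%). Without sample 12 (38.5%) or 15 (37.2%) 3 of 9 passed, and 3 of 8 without sample 16 (36.8%). The 4 members added without both samples were Timp1, Mmp9, Mmp3 and Plaur. The median log2 fold change of the 8 members was -0.09, against -0.01 over all genes.

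In 67NR cells 0 of the 6 tested members were called after CIX by limma-voom, where 0.389% of all genes were called (0.181% higher and 0.207% lower). At an unadjusted p under 0.05 there were 4 members (Mmp9, Mmp14, Plaur and Timp2), edgeR called 0 and DESeq2 called 1, Mmp14. Of all 11583 genes tested in 67NR, 3802 had such an unadjusted p, edgeR called 46 and DESeq2 called 1042. For the same counts of other lists below, in 4T1 5966 of 11676 genes had such a p, edgeR called 1028 and DESeq2 called 3096. At 0.05, Mmp9 and Mmp14 passed, 2 of 6 members against 17.8% of all genes, and these 2 did not overlap between treatments, as 23.3% of all genes. Without sample 2 or sample 13, Plaur and Timp2 passed 0.05 as well, 4 of 6 members (18.1% and 19.0% of all genes), and without any other sample 1 or 2 passed. The median over the 6 members was 0.22, against -0.01 over all genes.

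**Figure D2:**
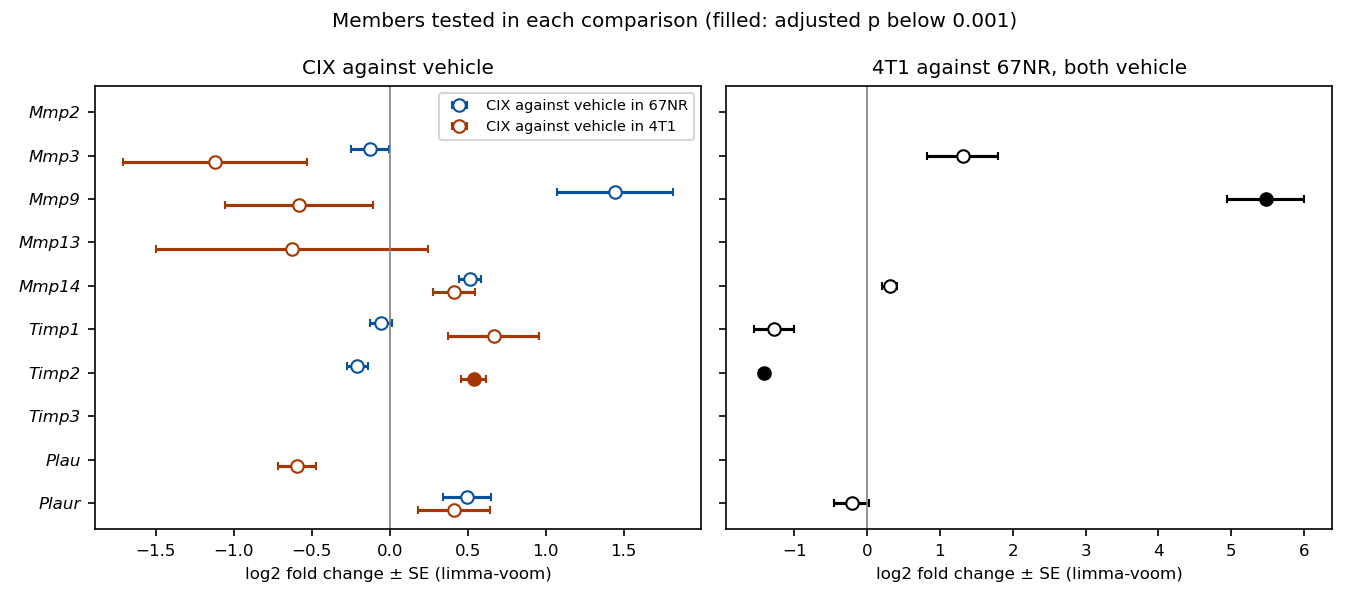
Log2 fold change (point) with its standard error (bar) of each member that passed the filter, for CIX against vehicle in each line (left) and for 4T1 against 67NR with vehicle (right); filled points passed the adjusted p of 0.001 and members without a point were not tested. Timp2 is the filled point at 0.54 in 4T1 on the left, while on the right Mmp9 stands at 5.47 and Timp2 at -1.42.

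For the difference between the responses of the lines 1 of 8 tested members was called, Timp2, where 7.86% of all genes were called (4.81% with a higher and 3.06% with a lower response in 4T1). At 0.05 it was still 1 of 8, against 29.3% of all genes, and 2 of 9 without sample 3 (Timp1 and Timp2, 30.3% of all genes) or 2 of 8 without sample 4 (Mmp9 and Timp2, 31%). Without both samples it was 4 of 9 (32.5%) and with sample quality weights 4 of 8 (39.8%), with Mmp3 in addition. Between the vehicle treated lines 2 of the 6 tested members were called, Mmp9 higher and Timp2 lower in 4T1, where 40.0% of all genes were called (20.4% higher and 19.6% lower). At 0.05, 5 of the 6 passed against 67.4% of all genes, and 4 of the 6 did not overlap between the lines against 61.6%. With Plau and Mmp13, which the filter removed, 6 of the 10 members did not overlap. The share of all genes was computed after the filter only, so this count has no share to be set against. The 2 comparisons within lines and the comparison of the lines share vehicle samples.

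Samples 3 and 4, 1 of vehicle and 1 of CIX treated 4T1 cells, held the highest levels of their groups for 6 of the 10 members, namely Mmp3, Mmp9, Mmp13, Mmp14, Timp1 and Plaur. The same was so in 19.9% of all genes tested in 4T1. Mmp13 in sample 3 was 6.90 times the mean of the other 3 vehicle samples, and in sample 4 it was 4.87 times the mean of the other CIX samples. For Mmp3 these ratios were 4.27 and 3.39, for Mmp9 1.92 and 3.92, and for Plaur 1.90 and 1.43. Timp2 (1.03 and 1.13) and Plau (1.02 and 1.34) moved less. Over the 11676 genes tested in 4T1 the deviations of samples 3 and 4 from their group means had a Pearson correlation of 0.411, across genes that are not independent, where the other 15 pairs of a vehicle and a CIX sample lay between -0.273 and 0.323. The next in order were samples 11 and 12 (0.323), 15 and 8 (0.207) and 15 and 16 (0.206), while samples 7 and 8 were at 0.0508. The labels do not say whether samples with consecutive numbers share a culture or batch. This choice of samples was made after the values were seen.

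**Figure D3:**
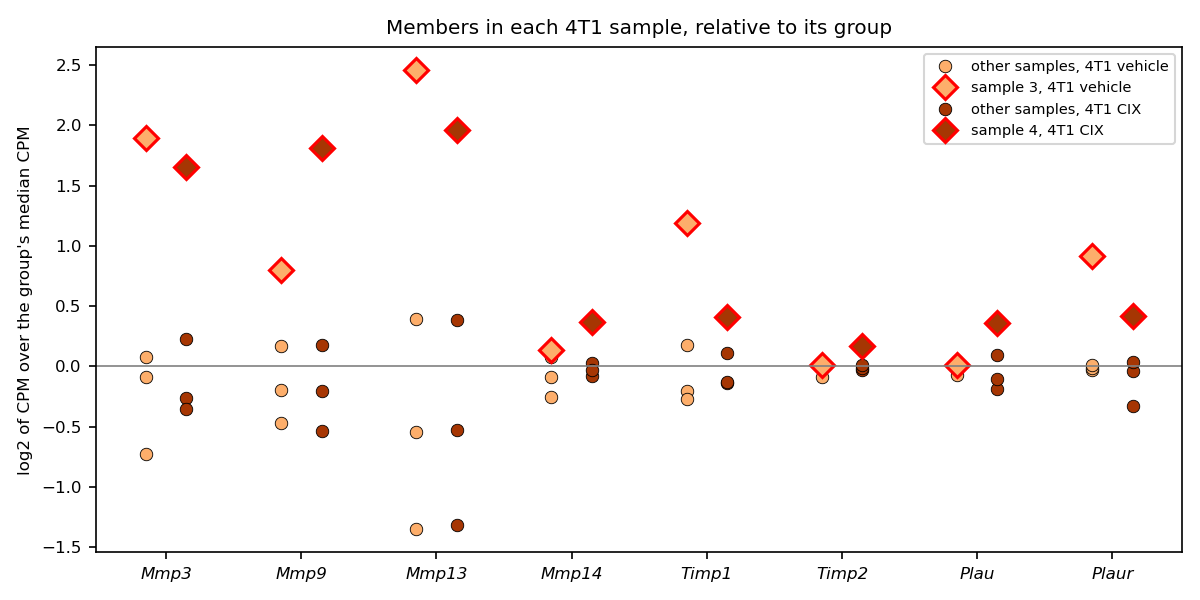
Log2 of the CPM of each expressed member over the median of its group, in the 4 vehicle and 4 CIX samples of 4T1 cells; diamonds with red edges are sample 3 (vehicle) and sample 4 (CIX). The diamonds lie above all other points for Mmp3, Mmp9, Mmp13, Mmp14, Timp1 and Plaur, and near the others for Timp2.

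Among the other MMP genes Mmp10 and Mmp28 were called for the difference between the responses of the lines. Mmp10 was at 244, 106, 88.4 and 132 CPM in vehicle and 92.8, 22.3, 29.6 and 55.1 CPM in CIX treated 4T1 cells, which overlapped in sample 4. In 67NR cells it went from 17.2 ± 2.10 to 52.1 ± 13.3 CPM (SD over 4 samples). Its log2 change was -1.67 in 4T1 (SE 0.45, limma-voom adjusted p = 0.0144) and 1.55 in 67NR (SE 0.22, adjusted p = 0.00278), and the difference of -3.22 passed the threshold (SE 0.58, adjusted p = 7.11e-04). Mmp28, epilysin, was at 0.457 ± 0.447 CPM with vehicle and 3.01 ± 0.897 CPM with CIX in 4T1, and at 13.4 ± 0.986 and 16.8 ± 2.11 CPM in 67NR. In vehicle treated 4T1 cells it was below 1 TPM in every sample, at 4.26 to 25.8 counts, and the filter removed it from the comparison in 4T1. It entered the test of the difference only through its level in 67NR. There the difference between the responses was 2.65 (SE 0.46, limma-voom adjusted p = 5.30e-04). These differences lay near the threshold: that of Mmp10 lost the call in 12 of 16 fits with a sample removed, and that of Mmp28 in 8 of 16 and with edgeR (adjusted p = 0.00284). Of the 18 other MMP genes 5 were tested for that difference and these 2 were called, while limma-voom and edgeR called 0 of 4 for CIX against vehicle in either line (unadjusted p under 0.05 in 4 and 3 genes, DESeq2 2 and 1). The filter on low levels left out Mmp1a, an interstitial collagenase, which is named here after its values were seen. It was at 16.0, 8.79, 6.96 and 7.94 CPM in vehicle and at 1.02, 0.432, 1.14 and 0.567 CPM in CIX treated 4T1 cells, so that the groups did not overlap (9.91 ± 4.10 against 0.788 ± 0.341 CPM). Without the filter the log2 fold change was -3.62 (SE 0.43, limma-voom adjusted p = 2.45e-04), and reads of Mmp1a and its near copy Mmp1b may not be told apart. With vehicle, Mmp10 and Mmp11 were higher in 4T1 (2.95 and 2.19 on the log2 scale) and Mmp19 was lower (-3.70).

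In the plasminogen system, limma-voom and edgeR called 0 of the 7 tested genes other than Plau and Plaur after CIX in either line. The unadjusted p was under 0.05 in 4 genes in 4T1 and 6 in 67NR, and DESeq2 called 1 and 2. Anxa2, a cell surface binder of plasminogen, differed in response by 0.73 (SE 0.13, limma-voom adjusted p = 7.54e-04), from 957 ± 150.0 to 1185 ± 76.0 CPM in 4T1 and from 868 ± 42.5 to 639 ± 62.3 CPM in 67NR, a call that was lost with edgeR (adjusted p = 0.00107) and in 14 of 16 fits with a sample removed. With vehicle, Plat, the tissue plasminogen activator, was higher in 4T1 (2.08 on the log2 scale), while S100a10 and Lrp1 were lower (-1.71 and -1.72).

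Among 11 other metalloproteinase inhibitors, activators and inducers, Pcolce, an enhancer of procollagen processing, fell in 67NR with CIX. It fell by 1.10 on the log2 scale (SE 0.09, limma-voom adjusted p = 5.29e-04), from 553 ± 52.3 to 260.4 ± 27.9 CPM. That call was lost in 6 of 8 fits with a sample removed, with an adjusted p of up to 0.00371. It was the single call in 5 tested genes there, and 0 of 6 were called in 4T1 by limma-voom or edgeR (4 with an unadjusted p under 0.05, 2 with DESeq2). In 4T1 it went from 20.6 ± 7.44 to 42.4 ± 9.07 CPM (1.02, SE 0.26, adjusted p = 0.0105), and the difference of 2.12 between the responses passed the threshold. With vehicle, Pcolce, Reck, a membrane inhibitor of MMPs, and Cd63, a binding partner of TIMP1, were lower in 4T1 by 4.80, 2.68 and 0.73 on the log2 scale, 3 of 5 tested genes.

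Of the 30 disintegrin metalloproteinases of the ADAM and ADAMTS families 14 were tested in 4T1 after CIX and 2 rose. Adam8, a surface sheddase, rose from 14.0 ± 4.29 to 85.1 ± 15.7 CPM (log2 fold change 2.59, SE 0.23, limma-voom adjusted p = 7.85e-05). In 67NR it was at 10.3 ± 1.54 CPM with vehicle and 14.6 ± 2.64 CPM with CIX, and the difference between the responses was 2.10 (adjusted p = 1.51e-04). Adamts7 rose by 0.99 in 4T1 (SE 0.13, adjusted p = 3.95e-04), a call lost in 6 of 8 fits with a sample removed. Of the 14 tested in 67NR, 0 were called by limma-voom, edgeR or DESeq2, with 4 at an unadjusted p under 0.05. With vehicle, 2 of 12 tested genes were higher in 4T1, Adamts13 and Adamts1 (4.10 and 2.97), and 4 were lower, first Adamts14 and Adamts7 (-2.37 and -2.22).

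Cystatin B (Cstb), an inhibitor of lysosomal cathepsins, fell by 1.10 on the log2 scale in 4T1 with CIX (SE 0.12, limma-voom adjusted p = 2.05e-04), from 293 ± 41.6 to 141 ± 14.0 CPM, the single call among 12 tested cathepsins and cystatins. The call was lost in 3 of 8 fits with a sample removed. The difference from 67NR was -0.94 (adjusted p = 6.29e-04), a call lost in 12 of 16 fits with a sample removed and without a filter (0.00140). Of these genes 0 of 10 were called in 67NR by limma-voom or edgeR (5 with an unadjusted p under 0.05, 1 with DESeq2). Between the vehicle treated lines 3 of 9 were higher in 4T1, Ctsh, Ctsz and Ctsa (2.95, 2.53 and 1.26), and 2 were lower, first Ctso (-2.70). In the list of membrane and related serine proteases and their inhibitors, Prss22, tryptase epsilon, was called in 4T1, 1 of 6 tested genes. It fell by 1.46 (SE 0.15, limma-voom adjusted p = 1.29e-04), from 430.2 ± 39.7 to 164 ± 30.8 CPM. Prss22 and St14, which encodes matriptase, were higher in 4T1 than in 67NR with vehicle (8.74 and 7.87), the only genes of this list tested there.

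Of the 18 AP-1 and ETS transcription factors, families known to bind promoters of MMP genes, limma-voom and edgeR called 0 of 18 tested in 4T1 and 0 of 15 in 67NR after CIX. The unadjusted p was under 0.05 in 7 and 4 of them, and DESeq2 called 3 in each line. Between the vehicle treated lines 6 of 14 were higher in 4T1, first Ets2, Junb and Jund (2.78, 2.62 and 1.63), and 4 were lower, first Jun (-2.28).

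**Figure D4:**
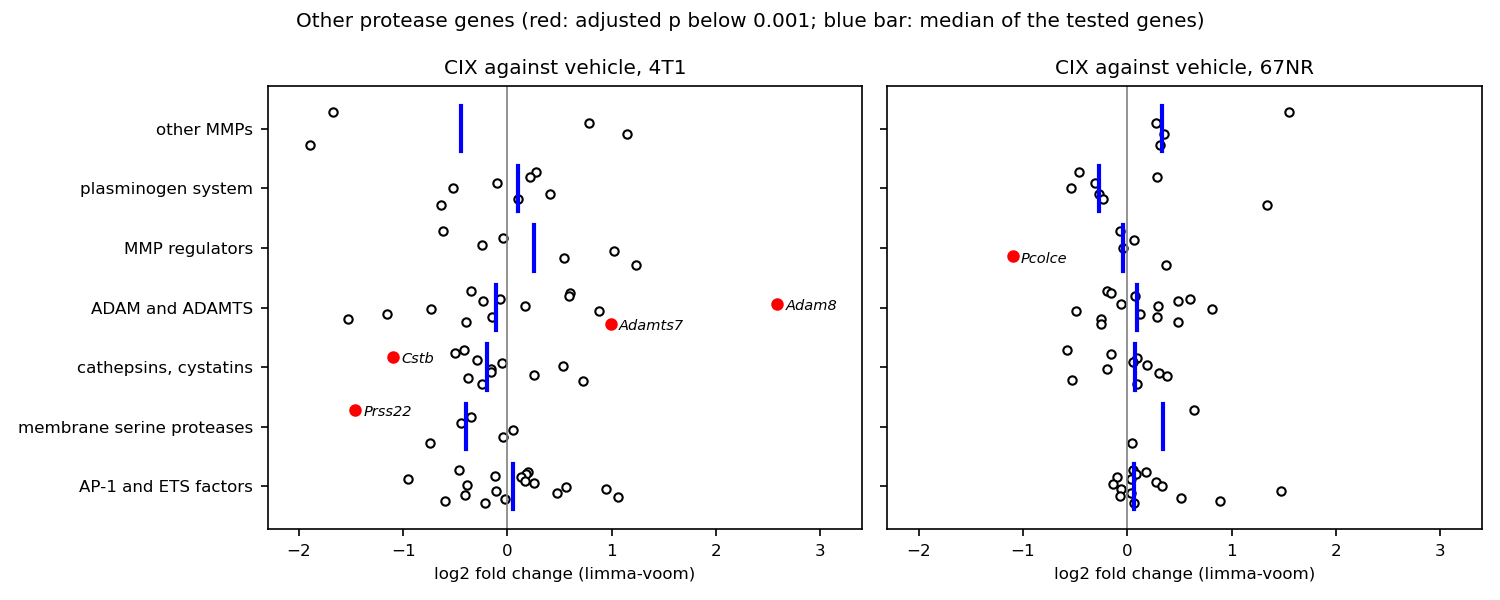
Log2 fold change of every tested gene in the lists of other proteases, inhibitors and AP-1 or ETS factors, for CIX against vehicle in 4T1 (left) and 67NR (right); red points passed the adjusted p of 0.001 and blue bars are the medians of the lists. Adam8 at 2.59 is the farthest point from 0, and Pcolce is the single red point in 67NR.

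Markers of cell state moved with CIX as well. The summed CPM of 11 mesenchymal markers was between 2482 and 3235 in vehicle and between 4354 and 5265 in CIX treated 4T1 cells, where 3 of the 11 were expressed. In 67NR these sums were between 6132 and 7036 and between 9233 and 10040, with Vim the most abundant at 5078 ± 416 and 7659 ± 472 CPM. The median log2 fold change of the 8 markers tested in 67NR was -0.01, with 0 calls by limma-voom or edgeR (4 with an unadjusted p under 0.05, 2 with DESeq2), and at a threshold of 0.05 Vim was higher (0.58, adjusted p = 0.00134) and Pdgfrb lower (-0.76, adjusted p = 0.00425). Vim, the intermediate filament vimentin, rose by 1.24 on the log2 scale in 4T1 (SE 0.08, limma-voom adjusted p = 4.27e-05). Twist1, a transcription factor of mesenchymal cells, rose by 0.92 (adjusted p = 4.62e-04), and both differed in response from 67NR (0.66 and 1.04). The call of Twist1 in 4T1 was lost in 7 of 8 fits with a sample removed. The epithelial marker sum in 4T1 was between 4033 and 4511 with vehicle and between 4702 and 5168 with CIX, while Epcam fell by 0.78 and Esrp1 rose by 0.76 (adjusted p = 1.28e-04 and 4.09e-04), the latter a call lost in 6 of 8 such fits. The macrophage marker Cd68 rose in both lines, by 1.25 and 2.08, in cells where Adgre1 and Tyrobp were at 0. These calls were lost in 6 of 8 such fits in 4T1 and 5 of 8 in 67NR. Cd68 was the single marker of its list tested in 4T1. Lyz2, the other marker of that list tested in 67NR, went the other way (-0.75, SE 0.25, limma-voom adjusted p = 0.0685). The part of these markers in the changes of Timp2 and the other members was not tested.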

How the data were processed

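RNA of 4T1 and 67NR cells was sequenced from a poly(A) stranded kit, 16 samples in 4 groups taken from the labels. The authors quantified reads with Salmon (0.12 in the submitters' processing notes) on Ensembl GRCm38, used tximport to sum them to genes, and the deposited values are estimated counts, not normalized. The notes name a human build, whereas all gene identifiers are of mouse. Of the values above 0, 0.0436% were whole numbers.

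Estimated counts were rounded, and genes with TPM below 1 in more than 3 samples of a comparison were left out (for the interaction only where this held in both lines). TPM was approximated from the mean GENCODE transcript length, which can shift levels between genes. limma-voom (limma 3.58.1, edgeR 4.0.16, R 4.3.3) with TMM tested 4 comparisons at a Benjamini-Hochberg adjusted p below 0.001. Single levels were compared with 2-sided exact permutation tests on log2(CPM + 0.5). The samples are biological replicates by the study's account. The methods were tested on simulated data. Alternatives were edgeR's quasi-likelihood test, DESeq2 1.42.0, its size factors, library size alone, other filters, a threshold of 0.05, a common fit, sample weights, and leaving out each sample. The omission of samples 3 and 4 and a block by sample number were added after the data were seen. All 10 members are described. Of each other list, up to 4 called genes with the largest change per comparison are named, except 1 that is not reported here. Members and lists were chosen with earlier results of these data known.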

Additional observations from a re-analysis of the deposited data

Results flagged for a closer look

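Each member was examined for a sample far from the other 3 of its group by Dixon's criterion. In 40 groups of 4 samples, 6 samples passed, where about 2 would by chance if values were normal and independent. CPM of several genes in the same samples need not be either, so the 2 numbers cannot be compared closely. In sample 3 of vehicle treated 4T1 cells Mmp3 was at 599.6 CPM against 97.9 to 171 in the other samples, and Plaur was at 141 CPM against 73.4 to 75.5. In sample 4 of CIX treated 4T1 cells Mmp3 was at 238 CPM against 59.4 to 88.4, and Mmp9 was at 151 CPM against 29.7 to 48.6. Plau in 67NR was at 0.787 CPM in sample 9 with vehicle, where the others were at 0, so that any level above 0 would have passed. It was at 0.427 CPM in sample 14 with CIX, where the others were at most 0.0458.

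The response of Timp2 to CIX differed between the lines by 0.74 on the log2 scale (limma-voom interaction, adjusted p = 7.88e-05), with 4 of 4 samples above all vehicle samples in 4T1 and overlapping groups in 67NR.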

How the results depend on the processing

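Among the values of the 10 members, 542 of 576 alternative values kept the direction and the side of the threshold, 11 lost and 17 gained a call, and 6 changed sign. After CIX in 4T1, where 1 member was called, the number was 2 with DESeq2 and with sample quality weights (Timp2 and Plau), 3 at a threshold of 0.05, and 0 with library size alone and without samples 3 and 4. With samples left out singly it lay between 0 and 1. In 67NR, with 0 calls, DESeq2 gave 1 and the threshold of 0.05 gave 2. For the difference between responses, with 1 call, leaving out samples 3 and 4 gave 2 (Timp1 and Timp2), and between the lines, with 2 calls, the threshold of 0.05 gave 5. There 3 were called with DESeq2, a common fit, sample weights and without sample 3, each adding Timp1 (adjusted p between 1.77e-05 and 2.17e-04), and with a filter of 1 CPM in at least 4 samples, no filter or without any 1 of the 67NR samples, each adding Plau, which was at or near 0 in 67NR. The filter allows 3 low samples, so it no longer removed Plau once any 67NR vehicle sample was left out. That added call follows from the filter and not from a particular sample. Mmp2 entered some of the 4T1 fits in the same way. The fold changes that turned sign were not called. For Mmp13 in 4T1 they ran from -1.25 to 0.11 with samples left out singly. For Plaur the difference between responses ran from -0.22 to 0.14 with samples left out singly and was 0.012 without samples 3 and 4. For Plau it was 0.12 with edgeR and 0.063 with DESeq2. Leaving out a sample also leaves fewer samples for the test. In other cases the cause was not tested.

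With DESeq2 3096 genes were called in 4T1 and 1042 in 67NR, with sample weights 2523 and 247, and with a common fit 2688 and 151, against 1084 and 45, while at 0.05 there were 4984 and 2056. For the difference between responses DESeq2 called 1981 and sample weights 1915, against 993. The omission of samples 3 and 4 was chosen after the data were seen. It also ended the calls after CIX in 4T1 of Adamts7 (adjusted p = 0.00209), Prss22 (0.00101), Twist1 (0.00160) and Cd68 (0.00107), and that of the difference in Mmp28 (0.00350).

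The sample numbers run through the 4 groups in sets of 4 consecutive numbers, but the labels do not say that a set was joined. A replicate block by these sets was added after the data were seen. The deviations of vehicle and CIX samples of a set had correlations between 0.0508 and 0.411 in 4T1, over 0.1 in 3 of 4 sets, and between -0.0504 and 0.101 in 67NR, over 0.1 in 2 of 4. Of the samples, 5 of 8 in 4T1 and 4 of 8 in 67NR correlated best with their own set. Pairing was thus not established. With the block limma-voom called 1048 genes in 4T1, 879 for the difference, 2921 between the lines and 0 in 67NR (3914 with an unadjusted p under 0.05). In 4T1 Mmp3 was called (-1.14, adjusted p = 5.67e-04), lower with CIX in 4 of 4 sets, and Timp2 was not (0.54, adjusted p = 0.00128), higher in 4 of 4. Mmp13 and Plau were also lower and Mmp14, Timp1 and Plaur higher in 4 of 4 sets, with adjusted p between 0.00460 and 0.0227. For Timp2, Plau and Mmp14, whose CIX and vehicle samples did not overlap, any pairing would give 4 of 4. With the block 51.2% of all genes tested in 4T1 had an adjusted p below 0.05. The difference of Mmp3 between the responses was -1.01 (adjusted p = 0.00105). With the block the adjusted p was also above the threshold for Twist1 (0.00120) and Esrp1 (0.00125) in 4T1, Pcolce (0.00868) and Cd68 (0.00712) in 67NR, the difference of Mmp28 (0.00398) and, between the lines, Adamts13 (0.00268). Mmp2 and Timp3 had at most 47.1 counts in a library and, in 67NR, Plau and Mmp13 at most 20.3, so few counts stand behind their values.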
